A study of Mus musculus with 6 samples.

Results

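Abundant RIKEN cDNA genes were taken as the rows whose symbols end in Rik and whose mean over the 6 libraries was at least 20 CPM, a gene's reads per 1000000 reads of its library. The rule found 122 genes among 2965 Rik symbols, of which 2049 had a read in any library, in a table of 55291 gene symbols. The libraries were made by Smart-seq2, a full-length method that primes on poly(A) tails, from fully grown mouse oocytes pooled 10 to a library. The 3 Nat10 cKO libraries came from mature females with a conditional Nat10 allele deleted by Gdf9-cre, whose promoter is active in growing oocytes. The 3 WT libraries came from mature WT females; the labels do not say whether these carried a floxed allele. Females of both genotypes had received PMSG, the gonadotropin that drives follicle growth, and a common volume of ERCC spike-in RNA was added to each pool. Nat10 encodes the cytidine acetyltransferase that makes N4-acetylcytidine in RNA, and the design sets oocytes without it against oocytes that have it. The labels do not say whether pools of a genotype came from separate females, so p-values measure the spread between pools, which may be partly technical.

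A Rik symbol is the name of a cDNA clone from the RIKEN mouse full-length cDNA project, kept as a placeholder until a gene receives a name for its product. The symbols therefore join protein-coding genes that had no accepted name with long noncoding RNAs, and share no pathway. A fully grown oocyte holds a store of transcripts made during growth and has little new transcription. A level in it therefore reflects what was made, what was kept and what could be primed on a poly(A) tail. Mouse oocytes are known for many long noncoding transcripts, a number of which begin in long terminal repeats of retrotransposons; repeats were not annotated here.

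The genes were chosen by their mean level over all 6 libraries, so that level is a description and receives no test. It was 21.04 CPM in B230118H07Rik, 20.2 in 2310022A10Rik and 20.1 in 2810002D19Rik, the lowest genes kept. It was 19.7 CPM in 1700093K21Rik, 19.2 in 2210016F16Rik and 18.6 in 2210404E10Rik, the highest Rik genes left out. GENCODE M21, an annotation on GRCm38, gave 84 of the 122 genes as protein coding. Of the other 38, it gave 23 as lincRNA, 8 as processed transcripts, 3 as antisense RNAs, 2 as transcribed processed pseudogenes and 1 as a bidirectional-promoter lncRNA, and 6720468P15Rik is a lncRNA in RefSeq alone. RefSeq held 115 of the genes and gave another class to 6 of them. It lists 5730480H06Rik, 1500011B03Rik, 4931428L18Rik and A630010A05Rik as noncoding, and 1810058I24Rik and A530021J07Rik as coding. The median exonic length was 3265.5 bases in the coding genes and 2712 bases in the noncoding ones.

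Recovered reads numbered 47409048 to 74098613 in Nat10 cKO libraries and 33520334 to 65451269 in WT libraries. Nat10 had 5.72, 5.97 and 6.32 CPM (here and from now on with library sizes scaled by TMM) in Nat10 cKO oocytes, against 42.1, 50.1 and 39.4 CPM in WT oocytes. Its log2 change was -2.67 (SE 0.129, limma adjusted p = 4.28e-08), so the libraries carried the genotypes of their labels. All 15 oocyte markers were at or above 1 CPM, and they summed to 37191 to 43410 CPM in Nat10 cKO and to 30839 to 32225 CPM in WT libraries; 9 of them rose, while Ooep, Zar1, Oosp1 and Dppa3 fell. Of the 15 granulosa cell markers, 6 (Amh, Amhr2, Fshr, Foxl2, Hsd17b1 and Fst) averaged under 1 CPM. The list summed to 406 to 440 CPM in Nat10 cKO and to 419 to 471 CPM in WT libraries. Serpine2, at a mean of 310 CPM, made up most of that sum, which says little of the other markers. Inha rose, with 4.84, 2.48 and 9.21 CPM in Nat10 cKO oocytes, against 2.16, 1.67 and 2.18 CPM in WT oocytes. Its log2 change was 0.98 (limma adjusted p = 0.0197). Inhba and Cyp19a1 fell (log2 changes -0.69 and -0.32). Gja1, at a log2 change of 1.33, did not pass (limma adjusted p = 0.0727). The 9 markers of theca, stroma and endothelium summed to 92.2 to 107 CPM in Nat10 cKO and to 94.3 to 99.9 CPM in WT libraries. Of these, 5 averaged under 1 CPM. Pecam1, at a mean of 49.5 CPM, rose (log2 change 0.51), while Myh11 and Cyp17a1 fell (-0.63 and -0.30). For blood and immune cells, 8 markers summed to 41.2 to 44.5 CPM in Nat10 cKO and to 51.1 to 55.6 CPM in WT libraries; C1qb made up most of that sum. The part of any other cell type, or of the higher oocyte marker sum, in the results that follow was not tested.

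The 122 genes together had 12839, 12626 and 12817 CPM in Nat10 cKO oocytes, against 14992, 13093 and 14303 CPM in WT oocytes, and each Nat10 cKO sum was below each WT sum. The coding genes gave 9786, 9695 and 9718 CPM in Nat10 cKO oocytes, against 11022, 9559 and 10393 CPM in WT oocytes, and here the groups overlapped. The noncoding genes gave 3053, 2931 and 3098 CPM in Nat10 cKO oocytes, against 3970, 3534 and 3910 CPM in WT oocytes, and these did not overlap. In such pools, less RNA of a gene per oocyte, fewer oocytes that hold it and a higher share of other RNAs cannot be told apart. Nor can less priming on poly(A) tails be told apart from them.

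The highest levels were those of a pair of coding genes. E330021D16Rik (chromosome 6, 136400317 to 136415569) had 2091, 1978 and 2179 CPM in Nat10 cKO oocytes, against 2558, 1971 and 2261 CPM in WT oocytes. E330034G19Rik, known as Zpac, a proteasome assembly chaperone of oocytes and zygotes (chromosome 14, 24293214 to 24309966), had 1756, 1697 and 1718 CPM in Nat10 cKO oocytes, against 1974, 1641 and 1802 CPM in WT oocytes. Neither passed the test, with log2 changes of -0.11 (SE 0.096, limma adjusted p = 0.385) and -0.06 (SE 0.084, limma adjusted p = 0.592). Per kilobase of exon they were also the 2 highest, at 1186 and 968 CPM per kb, ahead of the noncoding 1700018B24Rik at 381, 4933427D06Rik at 188 and the coding 4921524J17Rik at 168 CPM per kb. Together they held 27.6 to 30.4% of the reads of the 122 genes.

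**Figure D1:**
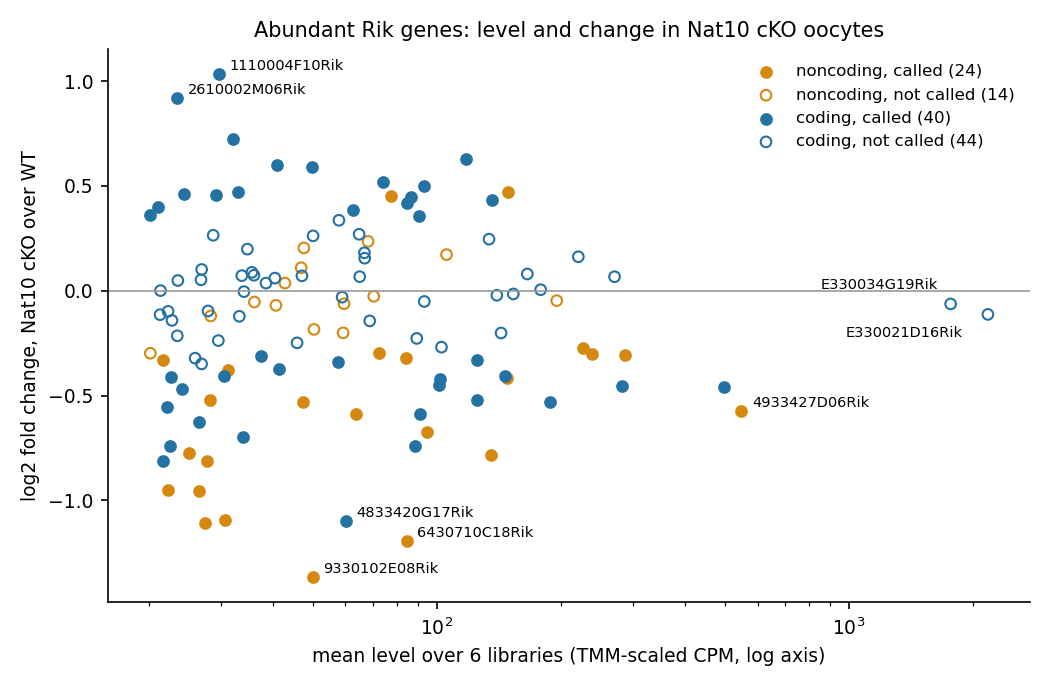
Each point is one of the 122 Rik genes, with its mean TMM-scaled CPM over the 6 libraries on a log axis and its log2 change in Nat10 cKO over WT oocytes on the other; colours separate coding from noncoding genes, and filled points are called. The pair of genes with most reads lie close to 0, and the noncoding points lie mostly below 0 on this scale, with a median of -0.304.

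All 122 genes passed the filter on low counts. In Nat10 cKO oocytes 20 rose and 44 fell, and 58 did not pass an adjusted p of 0.05 (limma on log2(CPM + 1), Benjamini-Hochberg adjusted over 18353 genes). These directions are relative to the bulk of genes in a library. On the values as deposited, described last, 2 rose and 0 fell, and there library totals differed widely within each group. With edgeR 22 rose and 43 fell, 63 of the calls being shared, against 33.7% of all genes called. The called share with limma was 52.5%, against 35.0% of all genes tested, of which 17.4% rose and 17.6% fell, and against 40.7% of the 6741 genes with a mean of at least 20 CPM. The median log2 change was -0.11 over the 122 genes, against 0.0010 over all genes tested. Changes ran from -1.37 to 1.03, and 1 gene rose and 5 fell by at least 2-fold. Either happened in 4.48% of all genes tested and in 2.21% of those with a mean of at least 20 CPM. The medians of the called changes were 0.47 for rises and -0.53 for falls. The 3 Nat10 cKO and the 3 WT values did not overlap in 28 genes that were higher and in 50 that were lower in Nat10 cKO oocytes, in all 63.9%. Over all genes tested the groups did not overlap in 48.3%, with 24.1% higher and 24.2% lower. Among genes with a mean of at least 20 CPM they did not overlap in 54.9%, with 27.5% higher and 27.4% lower. Of the 64 calls, 43 held in each of the 6 fits that left out a library. The median coefficient of variation was 6.64% among Nat10 cKO libraries and 8.60% among WT libraries.

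The calls split by class. Of the 84 coding genes, 18 rose and 22 fell, with a median log2 change of -0.01. Of the 38 noncoding genes, 2 rose and 22 fell, with a median of -0.30 (0.05 on the values as deposited), and 25 had all Nat10 cKO values under all WT values. Among the 213 other noncoding genes at 20 or more CPM, 10.3% rose and 46.5% fell, with a median of -0.24, and 51.6% had all Nat10 cKO values under all WT values; among the 6344 other coding genes at that level 1267 rose and 1271 fell. The noncoding Rik genes thus leaned downward as the other abundant noncoding genes did, and a difference between those sets was not tested. Among Rik genes below 20 CPM, 8.45% of 793 rose and 16.3% fell; there the noncoding ones had a median log2 change of -0.09. Of the 31 genes that both annotations list as noncoding, 1 rose and 17 fell. Among the 30 genes at 100 or more CPM, 3 rose and 14 fell, and among the 92 below that, 17 rose and 30 fell. For comparison, 19.5% of all genes at 20 or more CPM rose and 21.2% fell, a set not split at 100 CPM.

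**Figure D2:**
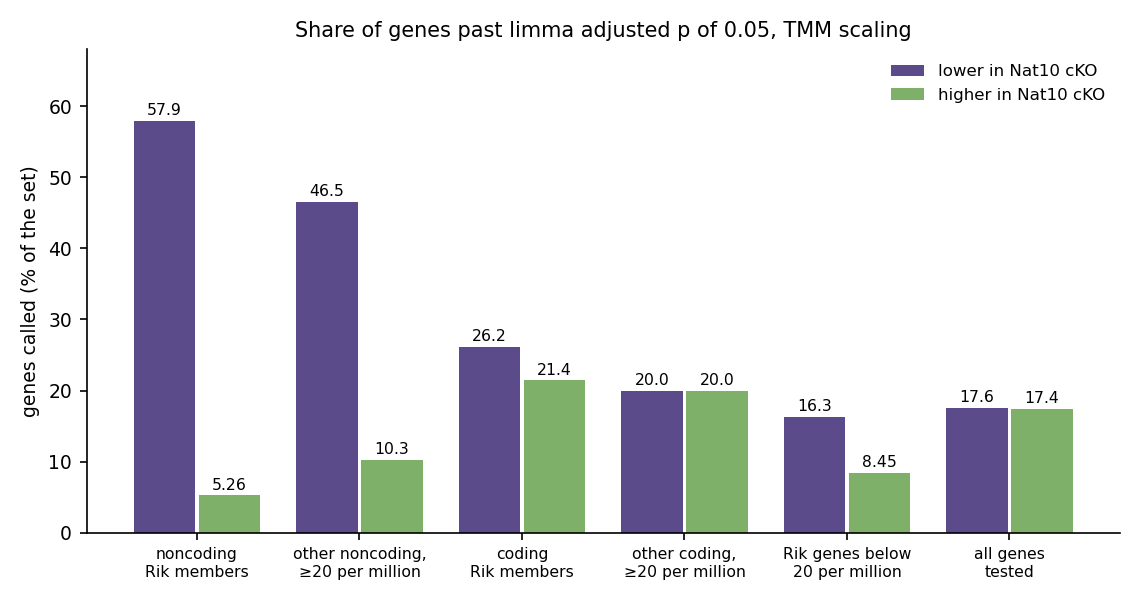
Bars give the percentage of each gene set called lower or higher in Nat10 cKO than in WT oocytes at a limma adjusted p of 0.05 after TMM scaling, for the noncoding and coding Rik genes, the other genes of the same class at 20 or more CPM, Rik genes below 20 CPM and all genes tested. Falls make up 57.9% and rises 5.26% of the noncoding Rik genes, against 26.2% and 21.4% of the coding ones.

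The noncoding genes that fell are described first. The start regions of 4 genes are shown here, 1 example for each of 4 kinds of change. They come from a noncoding and a coding gene that fell, then a noncoding and a coding gene that rose. Each is the RefSeq GRCm38.p6 sequence from 250 bases before to 50 bases after the gene's first listed start, 5′ to 3′ on the gene's strand, with each CG dinucleotide in capitals. The noncoding 9330102E08Rik is on the minus strand at chr6:128183754-128184053 and the coding 4833420G17Rik on the plus strand at chr13:119462509-119462808. The noncoding A530040E14Rik is on the plus strand at chr1:85105843-85106142 and the coding 1110004F10Rik on the plus strand at chr7:116093130-116093429. The RefSeq start can differ from the GENCODE one: that of 1110004F10Rik lies inside the GENCODE gene, whose printed start is farther upstream.
9330102E08Rik: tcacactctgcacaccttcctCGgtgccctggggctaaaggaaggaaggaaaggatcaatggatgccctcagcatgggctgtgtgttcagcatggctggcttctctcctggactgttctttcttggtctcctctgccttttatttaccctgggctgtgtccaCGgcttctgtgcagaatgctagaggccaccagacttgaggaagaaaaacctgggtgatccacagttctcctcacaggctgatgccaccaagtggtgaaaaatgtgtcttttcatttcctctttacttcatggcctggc
4833420G17Rik: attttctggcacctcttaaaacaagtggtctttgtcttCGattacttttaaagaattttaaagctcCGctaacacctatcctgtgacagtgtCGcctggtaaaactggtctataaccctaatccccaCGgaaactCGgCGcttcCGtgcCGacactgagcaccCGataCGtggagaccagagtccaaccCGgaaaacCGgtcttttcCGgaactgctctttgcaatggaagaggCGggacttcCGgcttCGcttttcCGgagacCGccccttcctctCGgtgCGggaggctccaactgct
A530040E14Rik: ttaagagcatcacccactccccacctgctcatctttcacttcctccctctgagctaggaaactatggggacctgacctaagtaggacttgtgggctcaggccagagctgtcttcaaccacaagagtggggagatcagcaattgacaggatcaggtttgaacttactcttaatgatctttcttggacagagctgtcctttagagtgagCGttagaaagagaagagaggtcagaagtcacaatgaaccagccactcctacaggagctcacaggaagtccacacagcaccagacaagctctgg
1110004F10Rik: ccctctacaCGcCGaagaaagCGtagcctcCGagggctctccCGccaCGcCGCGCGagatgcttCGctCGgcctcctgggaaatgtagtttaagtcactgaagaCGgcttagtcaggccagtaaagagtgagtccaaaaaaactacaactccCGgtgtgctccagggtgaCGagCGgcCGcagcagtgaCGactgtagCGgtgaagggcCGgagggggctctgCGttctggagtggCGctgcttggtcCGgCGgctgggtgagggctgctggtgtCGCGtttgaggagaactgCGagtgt
The noncoding starts held 2 CG in 9330102E08Rik and 1 in A530040E14Rik, and the coding starts held 20 in 4833420G17Rik and 26 in 1110004F10Rik. In these 4 genes the count thus went with class and not with the direction of change. Other genes of the same kinds differed, and the medians are given below. The coding C130073F10Rik, which rose, and 4930562C15Rik, which fell, held 1 CG each, and the noncoding 9430021M05Rik, which fell, held 52. A530040E14Rik was the only noncoding gene that rose and had a RefSeq promoter.

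The lincRNA 9330102E08Rik (chromosome 6, 128169704 to 128183803) had the largest fall of all 122 genes. It had 26.9, 22.1 and 34.4 CPM in Nat10 cKO oocytes, against 72.9, 71.8 and 71.5 CPM in WT oocytes. The WT pools were nearly equal and the Nat10 cKO pools lay far below them, a log2 change of -1.37 (SE 0.135, limma adjusted p = 2.68e-05). The lincRNA 6430710C18Rik (chromosome 2, 72745846 to 72813717) had 49.8, 44.9 and 58.0 CPM in Nat10 cKO oocytes, against 123, 99.5 and 131 CPM in WT oocytes. Its log2 change was -1.19 (SE 0.122, limma adjusted p = 3.54e-05). The transcribed processed pseudogene A930017M01Rik had 18.1, 13.3 and 20.1 CPM in Nat10 cKO oocytes, against 35.2, 36.7 and 41.3 CPM in WT oocytes. The lincRNA 0610033M10Rik, also on chromosome 6, had 20.2, 17.2 and 20.1 CPM in Nat10 cKO oocytes, against 47.6, 37.4 and 41.4 CPM in WT oocytes. Neither pair of groups overlapped, and the log2 changes were -1.11 (SE 0.145, limma adjusted p = 0.000156) and -1.09 (SE 0.123, limma adjusted p = 6.32e-05). A930017M01Rik shares 3.28% of its exon bases with Sybu, which fell as well.

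Smaller falls were seen in noncoding genes at low and at high level. At low level, 4930500H12Rik changed by -0.95 (SE 0.119), F630040K05Rik by -0.95 (SE 0.168), A530021J07Rik by -0.81 (SE 0.110) and B530045E10Rik by -0.77 (SE 0.128) on the log2 scale, with group means of 15.0 to 19.9 CPM in Nat10 cKO and 29.7 to 35.6 CPM in WT oocytes. A530021J07Rik is one of the genes that RefSeq lists as coding. At higher level, 2500002B13Rik had 103, 89.0 and 105 CPM in Nat10 cKO oocytes, against 179, 153 and 183 CPM in WT oocytes, a log2 change of -0.78 (SE 0.101, limma adjusted p = 0.000144). The lincRNA 4933427D06Rik, the noncoding gene with the most reads (chromosome 6, 88950683 to 89110031), had 430, 389 and 507 CPM in Nat10 cKO oocytes, against 687, 647 and 630 CPM in WT oocytes. Every Nat10 cKO pool was below every WT pool, with a log2 change of -0.57 (SE 0.099, limma adjusted p = 0.000827).

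Of the noncoding genes among the 12 most abundant Rik genes, 3 had calls that were less firm. A730082K24Rik had 260, 258 and 248 CPM in Nat10 cKO oocytes, against 369, 271 and 315 CPM in WT oocytes (log2 change -0.31, SE 0.105, limma adjusted p = 0.0362). E330011O21Rik had 219, 224 and 195 CPM in Nat10 cKO oocytes, against 285, 229 and 275 CPM in WT oocytes (log2 change -0.30, SE 0.100, limma adjusted p = 0.032). 1700018B24Rik (chromosome 3, 48605732 to 48609102) had 214.5, 183.8 and 215.1 CPM in Nat10 cKO oocytes, against 262.1, 222.8 and 256.7 CPM in WT oocytes (log2 change -0.27, SE 0.097, limma adjusted p = 0.0423). In all 3 the lowest WT pool was replicate 2, only just above the Nat10 cKO pools. Without WT replicate 1 none of the 3 passed, at -0.19 for A730082K24Rik, -0.24 for E330011O21Rik and -0.23 for 1700018B24Rik. Without WT replicate 2 all 3 passed, at -0.41, -0.39 and -0.34 in the same order; leaving out another library also ended the call of A730082K24Rik in 4 fits, and of each of the other 2 genes in 3. On the values as deposited the 3 changes were above 0, at 0.05, 0.06 and 0.09. The lincRNA 9130204K15Rik did not pass the test, with 188, 209 and 180 CPM in Nat10 cKO oocytes, against 210, 181 and 205 CPM in WT oocytes (log2 change -0.05, SE 0.094, limma adjusted p = 0.727).

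The antisense RNA A530040E14Rik (chromosome 1, 85105946 to 85114035) and the lincRNA 9830004L10Rik were the 2 noncoding genes that rose. A530040E14Rik had 178, 164 and 175 CPM in Nat10 cKO oocytes, against 105, 135 and 134 CPM in WT oocytes, a log2 change of 0.47 (SE 0.104, limma adjusted p = 0.00381). It shares 14.8% of its exon bases with C130026I21Rik, whose log2 change was 0.43 (limma adjusted p = 0.078), and reads of the pair may not be separable. 9830004L10Rik, named because it completes the count of 2, had 91.3, 93.9 and 84.2 CPM in Nat10 cKO oocytes, against 66.9, 57.9 and 71.5 CPM in WT oocytes (log2 change 0.45, SE 0.102, limma adjusted p = 0.00413).

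Of the coding genes that rose, 1110004F10Rik changed most. It encodes a small acidic protein (chromosome 7, 116039397 to 116105210) and had 39.2, 47.6 and 33.7 CPM in Nat10 cKO oocytes, against 15.7, 21.6 and 19.96 CPM in WT oocytes. The lowest Nat10 cKO pool was above the highest WT pool, with a log2 change of 1.03 (SE 0.147, limma adjusted p = 0.000265). 2610002M06Rik, known as Chmp1b2, a subunit of the ESCRT-III complex that cuts membrane necks (chromosome X, 107782751 to 107816334), had 30.2, 38.2 and 24.9 CPM in Nat10 cKO oocytes, against 14.9, 16.5 and 15.9 CPM in WT oocytes. Its log2 change was 0.92 (SE 0.145, limma adjusted p = 0.000491). 9430015G10Rik on chromosome 4 had 37.4, 46.5 and 36.7 CPM in Nat10 cKO oocytes, against 21.6, 25.9 and 24.1 CPM in WT oocytes (log2 change 0.72, SE 0.123, limma adjusted p = 0.000796). In each of these genes the highest of the 6 values was that of Nat10 cKO replicate 2.

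The other rises among the 12 largest lay between 0.46 and 0.63 on the log2 scale. 1110059E24Rik, at the highest level among them but for A530040E14Rik, had 143, 162 and 124 CPM in Nat10 cKO oocytes, against 99.4, 84.7 and 91.0 CPM in WT oocytes (log2 change 0.63, SE 0.108, limma adjusted p = 0.000814). E030030I06Rik changed by 0.60 (SE 0.109), C130073F10Rik by 0.59 (SE 0.099) and D230025D16Rik by 0.52 (SE 0.123) on the log2 scale. 2310057M21Rik, known as PAAT, a protein associated with ABC transporters, had 109, 121 and 98.2 CPM in Nat10 cKO oocytes, against 79.5, 70.7 and 80.8 CPM in WT oocytes (log2 change 0.50, SE 0.101, limma adjusted p = 0.0024). 2610507B11Rik, the mouse Kiaa0100 gene, changed by 0.47 (SE 0.116), and 2310011J03Rik and 4930522L14Rik by 0.46 each (SE 0.133 and 0.149). The groups overlapped in none of these 12 genes. The call of 2310011J03Rik was lost on leaving out Nat10 cKO replicate 2 (0.41) or WT replicate 1 (0.38) or 3 (0.42), and that of 4930522L14Rik on leaving out Nat10 cKO replicate 1 (0.46) or 2 (0.41) or WT replicate 2 (0.28).

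**Figure D3:**
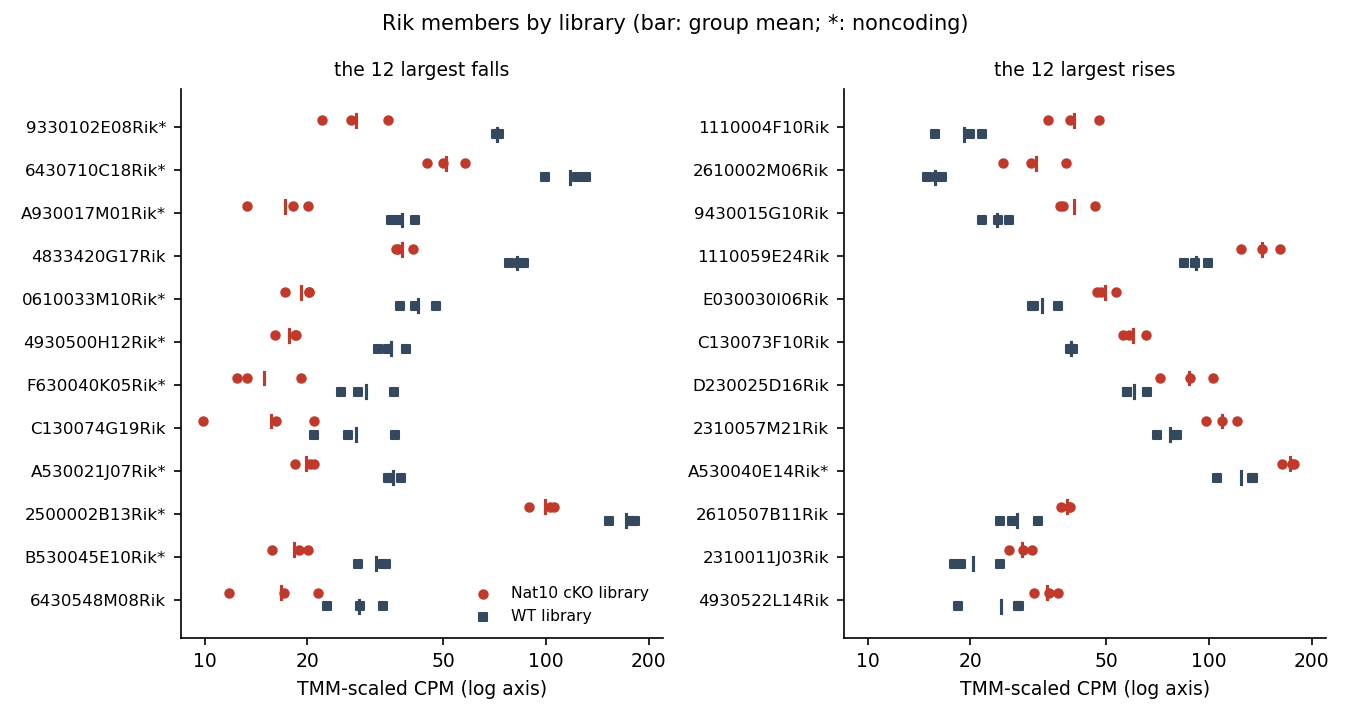
The 12 Rik genes with the largest falls and the 12 with the largest rises, each library as a point in TMM-scaled CPM on a log axis, Nat10 cKO as circles and WT as squares, with a bar at each group mean and an asterisk on noncoding genes. Noncoding genes make up 9 of the 12 falls and 1 of the 12 rises, and the groups overlap in C130074G19Rik alone.

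Among coding genes that fell, 4833420G17Rik (chromosome 13, 119462768 to 119486120) had 40.7, 36.8 and 36.3 CPM in Nat10 cKO oocytes, against 86.0, 77.8 and 83.2 CPM in WT oocytes. Both groups were tight, and the log2 change of -1.10 (SE 0.097, limma adjusted p = 1e-05) had the smallest adjusted p of the 122 genes. C130074G19Rik had 16.2, 9.88 and 20.9 CPM in Nat10 cKO oocytes, against 20.8, 36.2 and 26.2 CPM in WT oocytes. Its groups overlapped, its coefficients of variation, 35.2% in Nat10 cKO and 28.1% in WT oocytes, were the largest of the set, and its log2 change was -0.81 (SE 0.238, limma adjusted p = 0.0198). 6430548M08Rik, the mouse Kiaa0513 gene, had 17.01, 11.8 and 21.4 CPM in Nat10 cKO oocytes, against 28.6, 33.4 and 22.7 CPM in WT oocytes (log2 change -0.74, SE 0.188, limma adjusted p = 0.00838). The call of C130074G19Rik was lost without Nat10 cKO replicate 2 (-0.53), without WT replicate 2 (-0.60) or 3 (-0.83), and with DESeq2 (-0.82).

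At high level the coding falls were smaller. A430033K04Rik had 419, 447 and 391 CPM in Nat10 cKO oocytes, against 621, 526 and 582 CPM in WT oocytes (log2 change -0.46, SE 0.090, limma adjusted p = 0.00189). 4921524J17Rik had 239, 221 and 252 CPM in Nat10 cKO oocytes, against 352, 300 and 326 CPM in WT oocytes (log2 change -0.46, SE 0.090, limma adjusted p = 0.00202). 5730480H06Rik, which RefSeq lists as noncoding, had 159, 152 and 150 CPM in Nat10 cKO oocytes, against 249, 211 and 209 CPM in WT oocytes (log2 change -0.53, SE 0.092, limma adjusted p = 0.000859). No Nat10 cKO pool reached a WT pool in these 3 genes. Of all genes with a mean of at least 20 CPM, 19.5% rose and 21.2% fell. Among the 12 most abundant Rik genes, 7 fell, 3 of them the less firm calls above, none rose and 5 did not pass.

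The last of these 5 were 2700049A03Rik and 2700062C07Rik. 2700049A03Rik, known as Talpid3, a centriolar protein needed for cilia, had 279, 283 and 266 CPM in Nat10 cKO oocytes, against 285, 244 and 263 CPM in WT oocytes (log2 change 0.07, SE 0.087, limma adjusted p = 0.581). 2700062C07Rik had 236, 235 and 227 CPM in Nat10 cKO oocytes, against 223, 189 and 212 CPM in WT oocytes; its groups did not overlap, but its log2 change of 0.16 (SE 0.087, limma adjusted p = 0.167) did not pass.

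Several of the coding genes have since been named for their products. RefSeq gives another current symbol to 5 of the 122. Garre1 (4931406P16Rik), an effector of the GTPase Rac, had 35.4, 35.4 and 31.1 CPM in Nat10 cKO oocytes, against 35.9, 31.1 and 35.2 CPM in WT oocytes (log2 change -0.00, limma adjusted p = 0.981). Spring1 (2410131K14Rik), which activates the protease that cleaves SREBP, the regulator of sterol synthesis, had 29.8, 32.8 and 31.3 CPM in Nat10 cKO oocytes, against 23.1, 29.7 and 25.3 CPM in WT oocytes (log2 change 0.27, SE 0.119, limma adjusted p = 0.0999). Iftap (B230118H07Rik), an intraflagellar transport protein, had 25.5, 24.9 and 21.5 CPM in Nat10 cKO oocytes, against 18.1, 15.0 and 21.2 CPM in WT oocytes, and of these 3 it alone passed (log2 change 0.40, SE 0.139, limma adjusted p = 0.0398). Its exons share 6.7% of their bases with Rag1 and Rag2, which were both at 0 CPM in all 6 libraries. The call of Iftap was lost when Nat10 cKO replicate 1 (0.36) or 2 (0.37), or WT replicate 1 (0.41) or 2 (0.28), was left out. That of Spring1 appeared without WT replicate 2 (0.37). Eola1 (1110012L19Rik) had 176, 173 and 187 CPM in Nat10 cKO oocytes, against 193, 163 and 179 CPM in WT oocytes. Elapor2 (9330182L06Rik) fell, with 34.2, 30.0 and 35.6 CPM in Nat10 cKO oocytes, against 39.4, 40.0 and 45.2 CPM in WT oocytes (log2 change -0.31, SE 0.110, limma adjusted p = 0.0412). That call was lost on leaving out Nat10 cKO replicate 1 (-0.32) or 2 (-0.24) or WT replicate 1 (-0.35) or 3 (-0.25), and on the values as deposited the change was 0.04.

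Some further genes were picked after their values were seen, because RefSeq synonyms tie them to a product. 4930432K21Rik, known as Brme1, a meiotic recombination factor, had 64.3, 70.5 and 76.3 CPM in Nat10 cKO oocytes, against 61.4, 72.1 and 56.3 CPM in WT oocytes (log2 change 0.16, limma adjusted p = 0.299). 4932438A13Rik, the mouse Kiaa1109 gene for a lipid transfer protein, rose, with 74.5, 69.7 and 68.7 CPM in Nat10 cKO oocytes, against 50.6, 57.2 and 54.6 CPM in WT oocytes (log2 change 0.39, SE 0.095, limma adjusted p = 0.00713). 1810058I24Rik, known as Stmp1 and encoding a mitochondrial micropeptide although GENCODE lists it as a lincRNA, fell, with 65.8, 62.9 and 65.4 CPM in Nat10 cKO oocytes, against 78.3, 77.5 and 83.5 CPM in WT oocytes (log2 change -0.30, SE 0.089, limma adjusted p = 0.020). That call was lost on leaving out Nat10 cKO replicate 1 (-0.30) or 2 (-0.27) or WT replicate 3 (-0.26), and on the values as deposited the change was 0.06. So genes with a known product included rises, falls and changes that did not pass.

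The start regions shown above were counted for CG over all genes with a RefSeq start. A CG dinucleotide is its own reverse complement, so a count holds for both strands. The median over 27025 promoters of the same length was 7 CG, and 43.9% held at least 10. This reference took in all RefSeq promoters and was not split by class or level, so it is no match for abundant coding genes alone. The 73 coding Rik genes with a match had a median of 22, and 78.1% held at least 10; the 23 noncoding ones had a median of 5, and 47.8% held at least 10. Within the coding genes the median was 25 in the 17 that rose, 28 in the 22 that fell and 20.5 in the 34 not called. Within the noncoding genes it was 4 in the 13 that fell and 13 in the 9 not called, with 6 of the 13 and 5 of the 9 holding at least 10. These counts describe the sequence and were not tested.

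**Figure D4:**
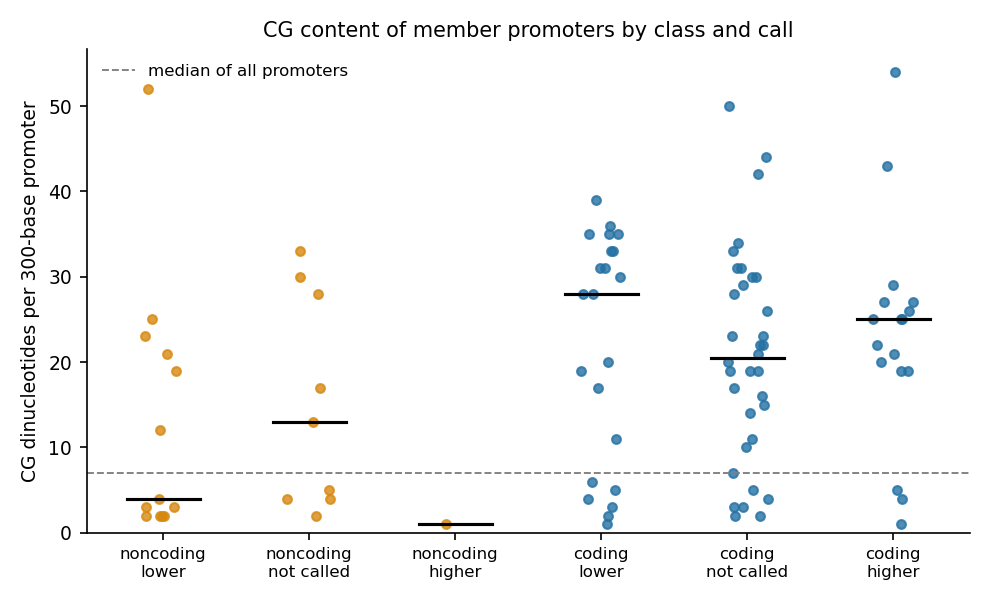
Each point is 1 of the 96 Rik genes with a RefSeq promoter, placed by class and call in Nat10 cKO against WT oocytes, with the number of CG dinucleotides in 300 bases around its start on the vertical axis; bars are group medians and the dashed line is the median of all promoters, 7. The coding medians of 20.5 to 28 lie above the line in each call, and the noncoding genes that fell have a median of 4 with 6 of 13 at 10 or more. The promoters behind the line are not split by class or level.

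Reads of neighbouring genes may have entered some of these rows, since the counting is not stated to use strand. Exon bases were shared with another gene in 39 of the 122 genes, on the opposite strand in 34 and on the same strand in 6. Only 12 genes shared 10% or more of their exon bases, and the highest share was 35.6%, in 2010001K21Rik. Among the 82 genes with no shared exon base, 11 rose and 31 fell; of their 25 noncoding genes 1 rose and 14 fell. The partner was tested in 22 exon-sharing pairs, the Rik gene was called in 7, and both were called in 4, all with both genes lower in Nat10 cKO oocytes. These were A930017M01Rik with Sybu (log2 changes -1.11 and -0.92), 5730480H06Rik with Kcnip4 (-0.53 and -0.78), A330093E20Rik with Kcnn2 (-0.59 and -0.70) and 1300002E11Rik with Map3k13 (-0.53 and -1.25). The partners averaged 13.9 CPM in Sybu, 3.64 in Kcnip4, 48.0 in Kcnn2 and 2.35 in Map3k13. The Rik genes of the last 3 pairs averaged 188, 63.5 and 47.4 CPM in the same order. How many reads of a partner entered a Rik row was not tested. In 27 genes another gene, by GENCODE, started within 1000 bases upstream on the opposite strand and ran away from the Rik gene. Here the partner was tested in 22 pairs, the Rik gene was called in 12, and both were called in 4. Of all genes tested, 35.0% were called, the share to set beside the partner counts of both kinds of pair. Both fell in 2500002B13Rik with Sap30, a subunit of the Sin3 histone deacetylase complex (log2 changes -0.78 and -1.30), and in F630040K05Rik with 1600014C23Rik (-0.95 and -0.41). The level of 1600014C23Rik was near the floor, at a mean of 0.647 CPM, against 185 CPM in Sap30. The directions were opposite in 1110059E24Rik with Abhd17b (0.63 and -0.79) and in 2210406O10Rik with Grpel1 (-0.42 and 0.49).

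The deposited table itself sets the libraries on another scale. Its values are reads multiplied by 1 factor per library, which was 0.92, 0.908 and 0.932 in Nat10 cKO and 1, 1.38 and 0.945 in WT libraries. On those values taken as deposited, 2 of the 122 genes rose, 1110004F10Rik (log2 change 1.37, limma adjusted p = 0.0133) and 2610002M06Rik (log2 change 1.26, limma adjusted p = 0.0283), and 0 fell, against 7.97% of all genes called. At an unadjusted p under 0.05 there were 17 genes. The median log2 change was 0.25 over the 122 genes, 0.34 over the coding and 0.05 over the noncoding ones, against 0.24 over all genes tested. With the same factors applied to shares of reads, 2 genes rose and 33 fell, against 22.1% of all genes called. The medians were then -0.32 over the 122 genes, -0.22 over the coding and -0.52 over the noncoding ones, against -0.15 over all genes tested. The 3 scales differ by 1 factor per library, which moves genes nearly alike, so the gap between the coding and noncoding medians was set to stay. Whether most noncoding genes were lower or higher in Nat10 cKO than in WT oocytes depended on the scale. All rises and falls given above are therefore relative to the bulk of genes in the same library.

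**Figure D5:**
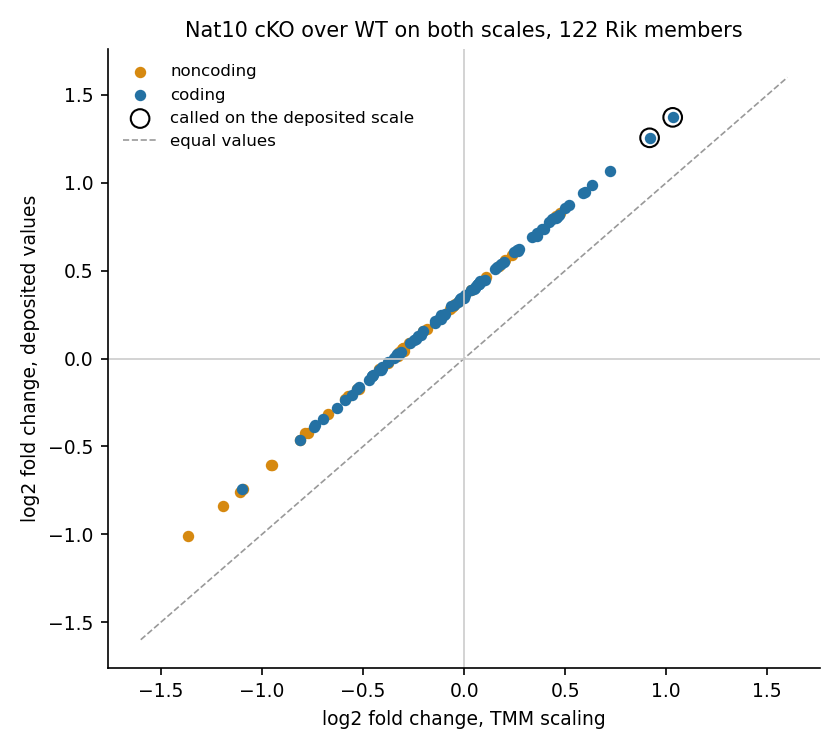
Each point is one of the 122 Rik genes, with its log2 change in Nat10 cKO minus WT oocytes on TMM-scaled CPM on one axis and on the values as deposited on the other. Every point lies above the dashed line of equal values, with a median over the genes of 0.25 as deposited and -0.11 after TMM scaling, and rings mark the 2 genes called as deposited.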

How the data were processed

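RNA was measured in 6 pools of 10 oocytes by Smart-seq2. Reads were handled with Trim Galore 0.6.7, STAR 2.7.10a and featureCounts on mm10, per the submitters' processing notes. The authors' deposited table held whole-number counts for WT replicate 1. In the other 5 libraries its values were a signal that the authors had scaled, equal to whole reads times 1 factor per library; dividing by that factor returned whole reads for all values within 0.001. The sources used here do not state how the factors were derived.

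From the recovered reads, edgeR 4.0.16 gave TMM factors and kept 18353 genes (filterByExpr, minimum count 10). limma 3.58.1 in R 4.3.3 (trended, robust) tested Nat10 cKO minus WT on log2(CPM + 1), a scale that understates changes of low genes, and p-values were adjusted by Benjamini-Hochberg over all 18353 genes with a threshold of 0.05. The fit was also run on simulated counts with few genes changed, whereas 35.0% of all genes tested were called here. That run therefore does not check the fit under widespread change. Replicates of a group differed beyond sampling noise, with a chi-square per degree of freedom of 12.6 to 48.7 over genes.

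Classes came from GENCODE M21 (53292 of 55291 symbols matched) and promoters from RefSeq GRCm38.p6 (96 of 122 genes). Protein sequences were not used here. Genes named were the 12 most abundant, the 12 largest rises and falls among calls, 3 on each side of the level threshold, and those with another current symbol and a role; others are marked. The genes, lists and tests were chosen with earlier results of these data known. Alternatives were other scalings, a pseudocount of 0.5, no filter, edgeR, DESeq2 1.42.0, a replicate block and leaving out each library.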

Additional observations from a re-analysis of the deposited data

How the results depend on the processing

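On the values as deposited, 2 of the 122 Rik genes were higher and 0 lower in Nat10 cKO oocytes (coding 2 and 0, noncoding 0 and 0), the groups did not overlap in 14 higher and 3 lower genes, the median log2 change was 0.2468 and the summed level changed by 0.2088 on the log2 scale. With the deposited factors on shares of reads, 2 were higher (coding 2, noncoding 0), the groups did not overlap in 3 higher genes, the median was -0.3154 and the summed level changed by -0.3763. Both differ from TMM by construction, by 1 factor per library. Without the filter 17 genes rose and 31 fell, with library sizes alone 24 and 40, with edgeR 22 and 43, with DESeq2 23 and 45.

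Over fits that each left out 1 library, 16 to 22 genes rose and 31 to 45 fell (coding 14 to 20 and 15 to 24, noncoding 2 to 3 and 15 to 23), and the median ran from -0.1495, without WT replicate 2, to -0.0653, without Nat10 cKO replicate 1.

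Direction reversed on the values as deposited in 39 of the 122 genes, 9 of them called after TMM scaling, and with the factors on shares in 22, of which 0 were called. Of the genes followed singly under each setting, it reversed as deposited for E330021D16Rik (0.2483), E330034G19Rik (0.2980), A730082K24Rik (0.0532), E330011O21Rik (0.0579), 1700018B24Rik (0.0868), 9130204K15Rik (0.3121), 2810002D19Rik (0.0448), 2210016F16Rik (0.1456), 4931406P16Rik (0.3457), 1810058I24Rik (0.0587) and 9330182L06Rik (0.0392). Among the same genes it reversed with the factors on shares for 2700049A03Rik (-0.1501), 2700062C07Rik (-0.0546), 4930432K21Rik (-0.0599), 1700019D03Rik (-0.1608), D430042O09Rik (-0.0136) and 1110012L19Rik (-0.2116). For 4931406P16Rik it also reversed with DESeq2 size factors (0.0031), library sizes alone (0.0252), no filter (0.0142) and DESeq2 (0.0023). Without 1 library it reversed for 4931406P16Rik (all such fits -0.0562 to 0.059), E330034G19Rik (-0.1197 to 0.0045), 9130204K15Rik (-0.1035 to 0.0009) and 1110012L19Rik (-0.0468 to 0.0658); the cause was not tested.

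With the replicate number as a block, 20 genes rose and 42 fell, with 2310022A10Rik, 9330182L06Rik and 9430021M05Rik no longer called and 2610021A01Rik called. Deviations of same-numbered libraries correlated at 0.0788, 0.0747 and -0.120, and Nat10 cKO replicate 1 correlated best with WT replicate 3 (0.237), so the numbers are not taken as pairs. With 3 pools a group, genes with a wide spread between pools, such as C130074G19Rik (SE 0.238), had the least precise changes.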
